A study of Rattus norvegicus with 9 samples.

Results

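The 9 genes described here mark microglia, the resident macrophages of the brain, and phagocytes, the cells that take up debris after tissue injury. They were chosen by Ensembl identifier, given with its symbol for each gene, and are 9 of the 32623 rat genes in the deposited count table. All 9 were abundant enough to be tested, among 15402 tested genes. The names are those supplied with the identifiers, because the table gives identifiers only and the reference gene table used here holds an Ensembl identifier for 0 of its 47357 genes. Markers of other tissues or cell types could therefore not be looked up. Each of the 9 genes was detected in every library, but without such markers this does not check the labelled tissue or the cell types in it.

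Gene expression was measured by RNA sequencing of poly(A)-selected RNA from rat brain tissue. Rats of all groups had been through a modelling procedure, described no further by the labels, and were injected 4.5 h afterwards. Tissue was taken 3 days after the injection. The groups, of 3 libraries each, received saline, rt-PA (recombinant tissue plasminogen activator, an enzyme that dissolves clots by making plasmin) or Nano-patrol+NIR, which the labels describe no further. In the count table and the sample descriptions the rt-PA group carries the name uk, and which agent those rats received was not resolved. Strain, sex, age, brain region and hemisphere were not stated in the labels. Rats without the modelling procedure were not analysed here, so levels before it are not known.

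Microglia receive signals from neurons, some of them through the fractalkine receptor, and survey tissue with moving processes. After ischemia or bleeding they retract these processes, take up debris and load their lysosomes. Monocytes entering from blood become macrophages in the same tissue and share many of the same genes. Of the genes here, Cx3cr1 (ENSRNOG00000018509) encodes the fractalkine receptor, Aif1 (ENSRNOG00000000853) the actin-binding protein Iba1, Itgam (ENSRNOG00000019728) the integrin chain CD11b, and Tyrobp (ENSRNOG00000020845) the adaptor DAP12, through which Trem2 and related receptors signal. CD11b is also carried by monocytes and neutrophils. These 4 are called the resident microglia genes below. The other 5 are called the phagocyte genes. Cd68 (ENSRNOG00000037563) encodes a lysosomal membrane glycoprotein, Gpnmb (ENSRNOG00000008816) a lysosome-linked glycoprotein, Lgals3 (ENSRNOG00000010645) galectin-3, which binds sugars on damaged membranes, and Spp1 (ENSRNOG00000043451) osteopontin, a secreted integrin ligand. Apoe (ENSRNOG00000018454) encodes apolipoprotein E, a lipid carrier that in brain is made mostly by astrocytes and also by phagocytes. Spp1 is also made by some neurons.

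Library totals ran from 13059048 to 14992109 counts. In each group 1 library stood apart from the other 2 across all tested genes. These were saline 1, rt-PA 3 and Nano-patrol+NIR 3. They correlated with the other libraries of their group at r = 0.8962 to 0.9441 over log2 CPM across genes (which are not independent replicates), against 0.9836 to 0.9903 for the other pairs. CPM is the count of a gene scaled to a common library total (counts per 1000000), after each total was multiplied by a TMM scaling factor, 0.935 to 1.11 here. The labels do not say that the libraries came from separate animals. In bulk tissue, fewer cells of a type and less RNA per cell cannot be told apart.

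Promoter sequences of the genes whose levels moved most between libraries are shown first, because several of these genes were high in the same libraries. RefSeq promoters (build GRCr8) were found for 6 of the 9 genes and not for Aif1, Tyrobp and Lgals3. The 250 bases before the annotated start are printed for Gpnmb (chr4:79340878-79341127, plus strand), Cd68 (chr10:54882442-54882691, minus strand), Itgam (chr1:192089342-192089591, plus strand) and Spp1 (chr14:5619805-5620054, minus strand), from 5′ to 3′ on the gene's strand. Capitals mark matches to the 4 motifs searched.
Gpnmb: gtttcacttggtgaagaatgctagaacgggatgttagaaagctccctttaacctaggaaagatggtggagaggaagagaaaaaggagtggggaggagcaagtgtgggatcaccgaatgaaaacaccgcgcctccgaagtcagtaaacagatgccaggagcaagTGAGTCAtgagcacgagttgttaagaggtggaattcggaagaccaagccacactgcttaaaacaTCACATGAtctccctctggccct
Cd68: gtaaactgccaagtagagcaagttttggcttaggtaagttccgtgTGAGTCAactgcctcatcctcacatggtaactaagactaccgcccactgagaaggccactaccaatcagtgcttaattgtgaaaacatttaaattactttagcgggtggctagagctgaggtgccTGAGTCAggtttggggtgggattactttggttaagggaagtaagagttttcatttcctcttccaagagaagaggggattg
Itgam: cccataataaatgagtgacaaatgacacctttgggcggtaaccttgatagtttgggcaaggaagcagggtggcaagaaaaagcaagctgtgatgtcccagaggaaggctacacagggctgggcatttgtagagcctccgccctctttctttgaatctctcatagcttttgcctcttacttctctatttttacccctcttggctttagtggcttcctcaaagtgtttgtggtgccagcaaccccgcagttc
Spp1: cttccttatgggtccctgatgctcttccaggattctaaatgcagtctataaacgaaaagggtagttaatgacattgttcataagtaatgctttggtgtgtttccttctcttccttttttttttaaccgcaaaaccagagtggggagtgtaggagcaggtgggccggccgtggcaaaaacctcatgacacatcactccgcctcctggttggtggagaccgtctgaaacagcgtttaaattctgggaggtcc
The motifs, searched on both strands, were TGANTCA (the AP-1 site), GAGGAAGT (a PU.1 type site), CACGTG (the E box) and TCATGTGA (the M box bound by MITF), the last added after the sequences were seen. Cd68 held TGAGTCA at 2 places, beginning 205 and 80 bases before the start. Gpnmb held it once, 87 bases before the start, and an M box, read as TCACATGA on its own strand, 23 bases before the start. No 2 matches overlapped. Of 33469 promoter windows of this length, 6.34% held the AP-1 letters, 0.977% the M box, 2.04% the PU.1 type site and 5.59% the E box. No match to these letters was found in the windows printed for Itgam and Spp1, in that of Cx3cr1 or in the 3 windows listed for Apoe. These matches describe the letters only.

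Among the resident microglia genes, Cx3cr1 and Aif1 varied little and Itgam varied most. Cx3cr1 was at 19.1, 16.1 and 19.8 CPM in saline 1, 2 and 3, at 14.3, 16.4 and 15.03 CPM in rt-PA 1, 2 and 3, and at 15.5, 16 and 14.8 CPM in Nano-patrol+NIR 1, 2 and 3. The highest of the 9 libraries was 1.39 times the lowest, and 92.9% of tested genes had a larger SD of log2 CPM over the 9 libraries. Each Nano-patrol+NIR library lay just below each saline library, while the rt-PA range overlapped both. Aif1 was at 11.1, 7.86 and 8.60 CPM in the saline libraries, 7.87, 9.52 and 9.32 CPM in the rt-PA libraries and 6.12, 6.14 and 7.87 CPM in the Nano-patrol+NIR libraries. Its Nano-patrol+NIR values all lay below the rt-PA values, though Nano-patrol+NIR 3 and rt-PA 1 were level to 3 digits, and Nano-patrol+NIR 3 overlapped the saline range.

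Itgam was at 13.8, 7.55 and 9.74 CPM in saline 1, 2 and 3. It was at 34.8, 45.2 and 12.2 CPM in rt-PA 1, 2 and 3, and at 8.66, 11.4 and 12.4 CPM in Nano-patrol+NIR 1, 2 and 3. Thus rt-PA 1 and 2 stood at least 2.52-fold above every other library, and rt-PA 3 lay within the saline range. Tyrobp had the same 2 highest libraries on a smaller scale, at 7.67, 5.55 and 6.40 CPM in saline, 8.88, 11.1 and 7.03 CPM in rt-PA and 7.46, 6.07 and 7.59 CPM in Nano-patrol+NIR. Again rt-PA 3 fell among the other libraries. Itgam was therefore high in rt-PA 1 and 2, where Cx3cr1 was not. On the log2 scale, and relative to the mean of the saline libraries, the ratio of Itgam to Cx3cr1 was 2.13 in rt-PA 1 and 2.31 in rt-PA 2, against -0.23 to 0.59 in the other 7 libraries. This ratio was chosen after the values were seen.

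**Figure D1:**
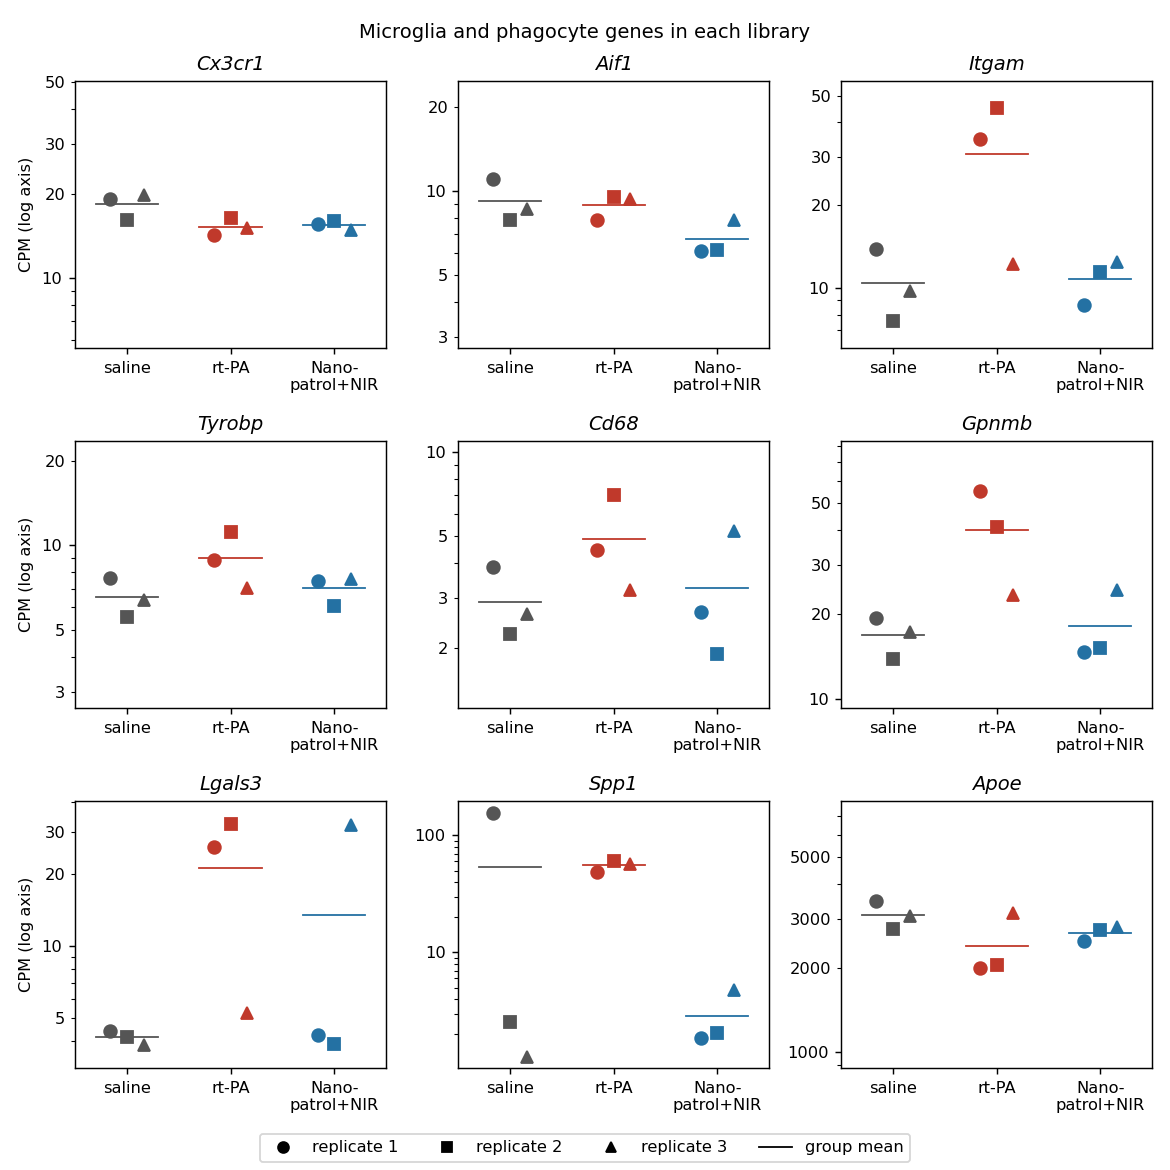
CPM (log axis) of the 9 genes in each library, with 1 panel per gene, groups along the x axis, symbols for replicate numbers and lines for group means. Itgam, Gpnmb and Lgals3 were high in rt-PA 1 and 2, Lgals3 also in Nano-patrol+NIR 3, and Spp1 was high in saline 1 and all 3 rt-PA libraries.

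Of the phagocyte genes, Lgals3 fell into separate high and low levels that did not follow the groups. It was at 4.41, 4.16 and 3.84 CPM in saline 1, 2 and 3, from 54 to 65 counts. In rt-PA 1, 2 and 3 it was at 25.9, 32.3 and 5.22 CPM, and in Nano-patrol+NIR 1, 2 and 3 at 4.25, 3.87 and 32.2 CPM. The 3 high libraries, rt-PA 1, rt-PA 2 and Nano-patrol+NIR 3, lay at least 4.97-fold above the other 6, and no library lay between. Saline varied least for this gene, with a highest to lowest ratio of 1.15. Relative to Aif1, on the log2 scale and from the saline mean, Lgals3 was at 2.81, 2.86 and 3.12 in the high libraries and at -0.19 to 0.60 in the others. This ratio too was chosen after the values were seen.

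Cd68 had the same 3 highest libraries as Lgals3, with smaller differences. It was at 3.87, 2.23 and 2.63 CPM in saline, 4.48, 7.01 and 3.20 CPM in rt-PA and 2.69, 1.90 and 5.22 CPM in Nano-patrol+NIR. Its counts were low, 25 to 92 a library, so counting error is not negligible here. Gpnmb was at 19.3, 13.9 and 17.3 CPM in saline 1, 2 and 3, at 55.4, 41.0 and 23.4 CPM in rt-PA 1, 2 and 3, and at 14.6, 15.2 and 24.5 CPM in Nano-patrol+NIR 1, 2 and 3. All 3 rt-PA libraries lay above the saline range for Gpnmb, and so did Nano-patrol+NIR 3.

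Spp1 spanned a wider range than the other 8 genes, and its level went with that of Lgals3 in 6 of the 9 libraries. Both genes were high in rt-PA 1 and 2 and low in saline 2 and 3 and Nano-patrol+NIR 1 and 2. It was at 157, 2.54 and 1.28 CPM in saline 1, 2 and 3, from 2308, 33 and 18 counts. It was at 48.8, 60.2 and 57.3 CPM in rt-PA 1, 2 and 3, and at 1.87, 2.05 and 4.73 CPM in Nano-patrol+NIR 1, 2 and 3. The 3 rt-PA libraries were alike, with a highest to lowest ratio of 1.23, although rt-PA 3 differed from rt-PA 1 and 2 for Itgam, Gpnmb and Lgals3. Saline 1 exceeded saline 2 by 61.6-fold and saline 3 by 122-fold, and 0.0195% of tested genes had a larger SD of log2 CPM among the saline libraries. In the other 3 libraries the genes parted, with Spp1 high and Lgals3 low in saline 1 and rt-PA 3, and Lgals3 high and Spp1 low in Nano-patrol+NIR 3.

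Apoe was abundant, and in rt-PA 1 and 2 it moved against the other phagocyte genes. Its highest library was saline 1, as for Spp1. It was at 3468, 2763 and 3086 CPM in saline, 2001, 2055 and 3153 CPM in rt-PA, and 2493, 2728 and 2819 CPM in Nano-patrol+NIR. The lowest libraries were rt-PA 1 and 2, those in which Itgam, Tyrobp and Gpnmb were highest, and rt-PA 3 was within the saline range.

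**Figure D2:**
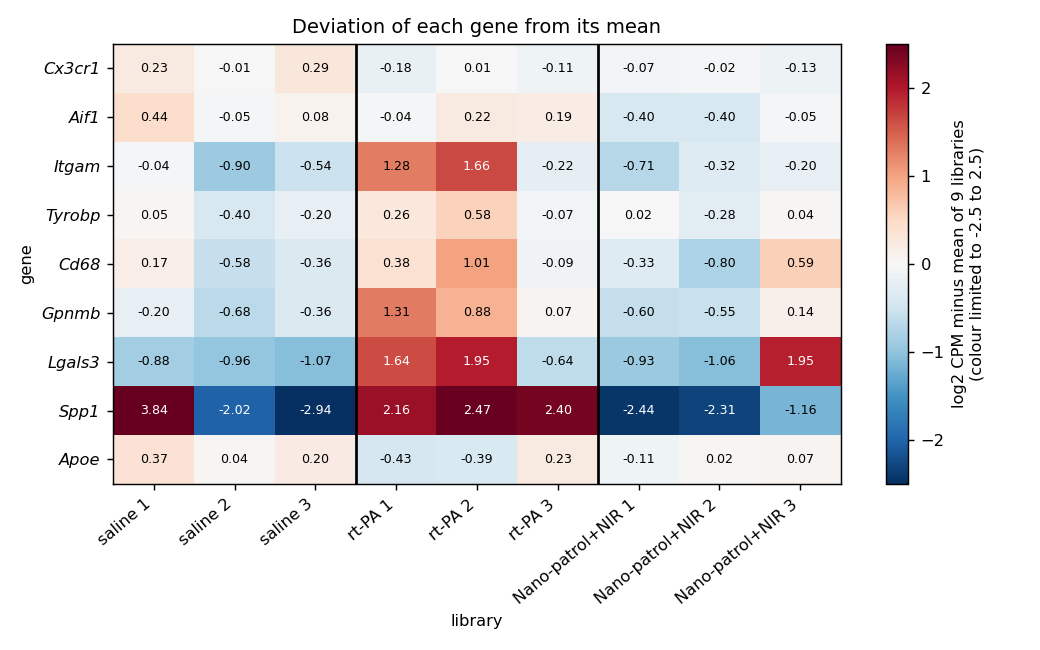
Log2 CPM of each gene (rows) in each library (columns) minus the gene's mean over the 9 libraries, with vertical lines between groups and colour limited at 2.5 either way. Lgals3 stood at 1.64, 1.95 and 1.95 in rt-PA 1, rt-PA 2 and Nano-patrol+NIR 3, while Spp1 stood at 3.84 in saline 1 and at 2.16 to 2.47 in the rt-PA libraries.

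Libraries thus shared their high genes in part. Both rt-PA 1 and rt-PA 2 lay above all saline libraries and above Nano-patrol+NIR 1 and 2 for 5 of the 9 genes, namely Itgam, Tyrobp, Cd68, Gpnmb and Lgals3. The same held for 21% of all tested genes. The libraries rt-PA 1, rt-PA 2 and Nano-patrol+NIR 3 were the highest 3 for Cd68, Gpnmb and Lgals3, against 4.21% of all tested genes. These sets of libraries were picked after the values were seen, so the counts are descriptions. Library rt-PA 2 was the highest of all for 4 genes, saline 1 for 3, and saline 2 the lowest for 3.

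Each library's phagocyte genes were also set against its resident microglia genes, as the mean log2 CPM of Cd68, Gpnmb, Lgals3, Spp1 and Apoe minus that of Cx3cr1, Aif1, Itgam and Tyrobp. Scaling of library totals hardly moves this ratio. Relative to its mean over the 9 libraries it was 0.68, 0.57 and 0.45 in rt-PA 1, 2 and 3, 0.49, -0.50 and -0.81 in saline 1, 2 and 3, and -0.59, -0.69 and 0.40 in Nano-patrol+NIR 1, 2 and 3. The groups overlapped between rt-PA and saline but not between rt-PA and Nano-patrol+NIR. With Itgam kept among the resident microglia genes, the spread of the ratio between libraries rested largely on Spp1 and Lgals3. Without Spp1, a choice made after seeing the data, saline 1 was at -0.30 and rt-PA 3 at -0.05. Nano-patrol+NIR 3 was then the highest library at 0.77, above rt-PA 1 at 0.40, so rt-PA and Nano-patrol+NIR overlapped. Saline, at -0.30 to -0.20, then lay below rt-PA, at -0.05 to 0.40. Without Lgals3, saline 1 was the highest at 0.88, and rt-PA, at 0.37 to 0.71, lay above Nano-patrol+NIR, at -0.66 to -0.01. Without both genes the 8 libraries other than Nano-patrol+NIR 3 lay between -0.19 and 0.12, and Nano-patrol+NIR 3 was at 0.35. A ratio near 0 does not mean that the remaining genes stayed level, because they can cancel. In rt-PA 2, Cd68 and Gpnmb stood 1.01 and 0.88 above their own means (log2). Itgam and Tyrobp stood 1.655 and 0.58 above theirs, and Apoe was at -0.39. In rt-PA 1, Itgam stood 1.28 above its mean. As a resident microglia gene Itgam lowers the ratio where it is high, and the ratio without Itgam was not computed.

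**Figure D3:**
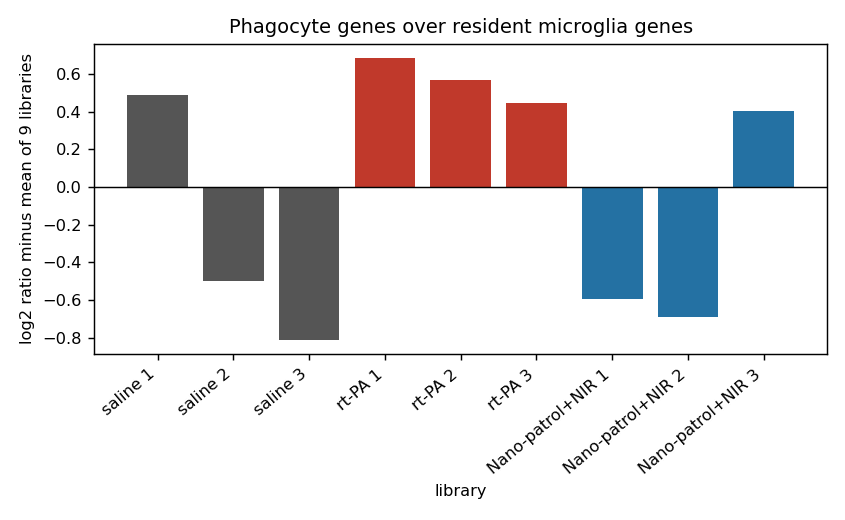
Mean log2 CPM of the 5 phagocyte genes minus that of the 4 resident microglia genes, relative to the mean of 9 libraries, with 1 bar per library coloured by group. Bars for saline 1, the 3 rt-PA libraries and Nano-patrol+NIR 3 were positive, at 0.40 to 0.68, and the other 4 negative.

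The first comparison asked how these genes differed between rt-PA and saline. Itgam and Gpnmb averaged more in rt-PA by 2.96-fold and 2.37-fold, and Lgals3 by 5.1-fold, but none of the 9 genes passed the threshold, an edgeR adjusted p under 0.05 over all tested genes. The count was 0 of 9, where 0.00649% of all tested genes passed. At an unadjusted p under 0.05 there were 3 of 9, all higher, against 9.05% of tested genes higher and 7.97% lower. The mean of Itgam was 30.7 ± 16.9 CPM after rt-PA and 10.4 ± 3.20 CPM after saline (SD, 3 libraries each). Its log2 difference was 1.56 with an SE of 0.45, a 95% interval of 0.54 to 2.58 and an edgeR adjusted p of 0.147. The mean of Gpnmb was 39.95 ± 15.98 CPM after rt-PA and 16.8 ± 2.77 CPM after saline. This log2 difference was 1.24 with an SE of 0.34, an interval of 0.48 to 2.01 and an edgeR adjusted p of 0.136. For Lgals3 the means were 21.1 ± 14.2 and 4.14 ± 0.287 CPM, and the log2 difference was 2.35 with an SE of 0.91, an interval of 0.27 to 4.43 and an edgeR adjusted p of 0.243.

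The rt-PA and saline ranges did not overlap for Gpnmb and Lgals3, 2 of 9 genes, both higher in rt-PA. Among all tested genes 9.18% were so separated with rt-PA higher and 10.3% with rt-PA lower. For Lgals3 the gap was narrow, from 4.41 CPM (65 counts) in saline 1 to 5.22 CPM (75 counts) in rt-PA 3. Counting error is not negligible at such counts. Tyrobp and Cd68 had log2 differences of 0.46 (SE 0.25) and 0.75 (SE 0.46), and Cx3cr1, Aif1 and Apoe of -0.27 (SE 0.16), -0.04 (SE 0.22) and -0.37 (SE 0.24), with edgeR adjusted p from 0.379 to 0.942. The median log2 difference of the 9 genes was 0.46, beside -0.01 over all tested genes. The mean of Spp1 was 55.5 ± 5.95 CPM after rt-PA and 53.5 ± 89.3 CPM after saline (SD, 3 libraries each), and saline 1 carried nearly all of the saline mean. The log2 difference was 0.05 with an SE of 1.34, an interval of -3.00 to 3.10 and an edgeR adjusted p of 0.987.

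Single libraries decided which genes passed in this comparison. Without saline 1, the log2 difference of Spp1 was 4.89 and its edgeR adjusted p 0.0498, just under the threshold, where 0.0255% of tested genes were called higher. Without rt-PA 3, Itgam (log2 difference 1.96, edgeR adjusted p = 0.00672) and Gpnmb (1.54, edgeR adjusted p = 0.0141) passed, where 8.32% of tested genes were called higher. Without saline 2 or saline 3 the Spp1 difference turned negative, to -0.52 and -0.53. DESeq2, on all 9 libraries, called Itgam (log2 difference 1.59, adjusted p = 0.0185) and Gpnmb (1.27, adjusted p = 0.017), where it called 3.76% of tested genes higher. It gave no p for Spp1, so it tested 8 of the 9 genes. Limma-voom called 0 of 9 (0% of tested genes). With a weight per library, which gives libraries that stand apart less say, limma-voom called 6 genes higher and 1 lower, where it called 21.9% of tested genes higher and 23.3% lower.

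**Figure D4:**
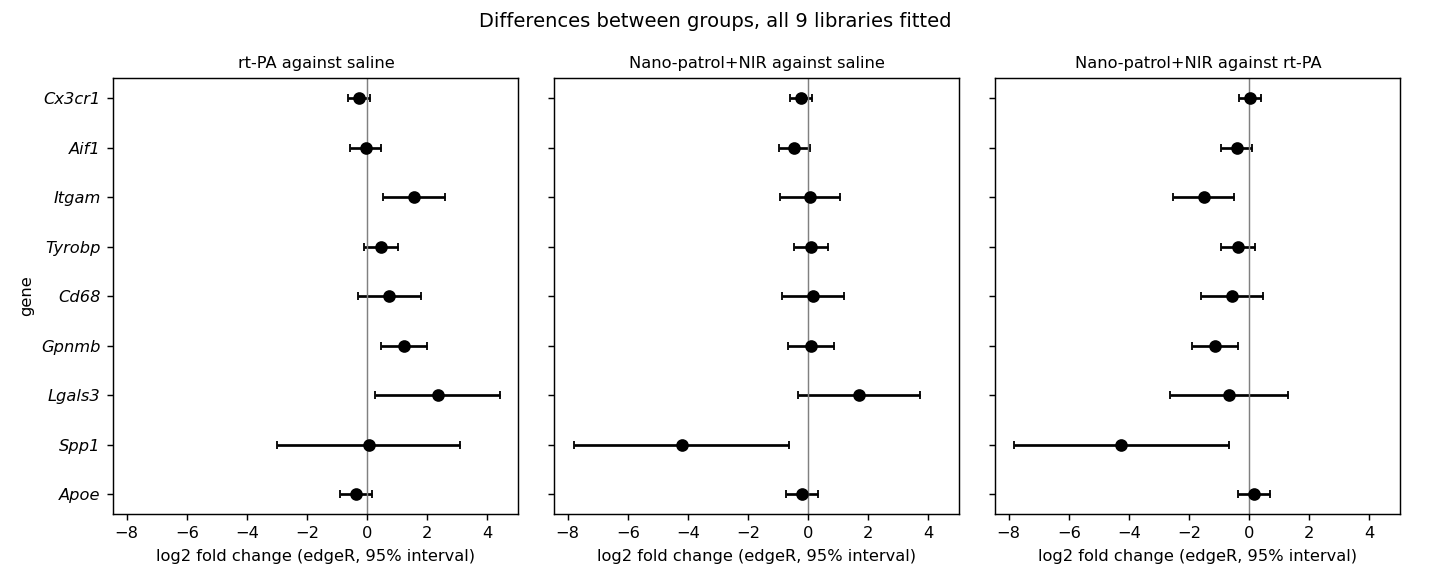
Log2 differences between groups for each gene (points) with 95% intervals (bars) from the edgeR fit of all 9 libraries, with 1 panel per comparison. Intervals lay above 0 for Itgam, Gpnmb and Lgals3 in rt-PA against saline, below 0 for Spp1 in both Nano-patrol+NIR panels and below 0 for Itgam and Gpnmb in Nano-patrol+NIR against rt-PA, and none of the 27 values passed the adjusted threshold.

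Nano-patrol+NIR was compared with the same saline libraries, so both comparisons with saline share their controls. Most of the 9 genes lay close to saline. Itgam, Tyrobp, Cd68 and Gpnmb had log2 differences of 0.06 (SE 0.44), 0.11 (SE 0.25), 0.17 (SE 0.46) and 0.10 (SE 0.33). Their 95% intervals reached from -0.95 to 1.06 for Itgam, -0.46 to 0.67 for Tyrobp, -0.88 to 1.21 for Cd68 and -0.66 to 0.86 for Gpnmb. Increases of just over 1 log2 unit were therefore not excluded for Itgam and Cd68, nor smaller ones for Tyrobp and Gpnmb. None of the 9 genes passed the threshold with edgeR (adjusted p from 0.778 to 1), where 0.00649% of tested genes passed. DESeq2 called 0 of the 8 genes to which it gave an adjusted p, Spp1 again having none (0.718% of tested genes), limma-voom 0 (0%) and its version with library weights 0 (5.9%). Spp1 alone had an unadjusted edgeR p under 0.05, where 2.45% of tested genes were lower at that level. Its mean was 2.88 ± 1.61 CPM after Nano-patrol+NIR and 53.5 ± 89.3 CPM after saline (SD, 3 libraries each).

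The Spp1 log2 difference of -4.21 (SE 1.57, interval -7.78 to -0.64, edgeR adjusted p = 0.778) rested on saline 1. Without that library it was 0.62, with an edgeR adjusted p of 0.821, and the 3 Nano-patrol+NIR libraries then ran from 1.87 to 4.73 CPM beside 1.28 and 2.54 CPM in saline. The mean of Lgals3 was 13.4 ± 16.2 CPM after Nano-patrol+NIR and 4.14 ± 0.287 CPM after saline. This difference, 1.70 on the log2 scale (SE 0.90, edgeR adjusted p = 0.924), rested on Nano-patrol+NIR 3, and without that library the log2 difference was -0.03. Cx3cr1, Aif1 and Apoe had log2 differences of -0.25 (SE 0.16), -0.45 (SE 0.22) and -0.21 (SE 0.24). The ranges did not overlap for Cx3cr1, 1 of 9 genes, lower in Nano-patrol+NIR, where 6.86% of tested genes were so separated in that direction. This separation rested on the TMM scaling. Nano-patrol+NIR 3 held 213 counts of 13059048 and saline 2 held 209 of 13894729, so by library totals alone the groups overlapped. The median log2 difference of the 9 genes was 0.06, beside -0.01 over all tested genes.

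The direct comparison of Nano-patrol+NIR with rt-PA asked how far these genes set the treatments apart. Spp1, Itgam and Gpnmb averaged less in Nano-patrol+NIR, and 7 of the 9 genes had a negative difference, with a median of -0.58 on the log2 scale beside 0.02 over all tested genes. None of the 9 passed the threshold with edgeR, where 0% of all tested genes did, and 3 were lower at an unadjusted p under 0.05, against 7.86% of tested genes. The mean of Spp1 was 2.88 ± 1.61 CPM after Nano-patrol+NIR and 55.5 ± 5.95 CPM after rt-PA (SD, 3 libraries each). Every Nano-patrol+NIR library lay below every rt-PA library, by at least 10.3-fold. The log2 difference of -4.26 (SE 1.57, interval -7.83 to -0.68) had an edgeR adjusted p of 0.293. That test takes its spread from all groups, saline 1 included. The log2 difference was -4.27 without saline 1 (unadjusted p = 1.16e-05, edgeR adjusted p = 0.0605) and -4.26 with only the 6 libraries compared (unadjusted p = 2.41e-05, edgeR adjusted p = 0.179), both short of the threshold. Over the 9 fits that leave out 1 library the edgeR adjusted p ran from 0.0605 to 0.695.

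Itgam had a log2 difference of -1.51 (SE 0.45, interval -2.52 to -0.49, edgeR adjusted p = 0.226), and Gpnmb of -1.14 (SE 0.34, interval -1.90 to -0.38, edgeR adjusted p = 0.224). In both genes rt-PA 3 overlapped the Nano-patrol+NIR range. The ranges did not overlap for Spp1 and Aif1, 2 of 9 genes, both lower in Nano-patrol+NIR, beside 8.54% of tested genes. The Aif1 separation rested on the TMM scaling. Nano-patrol+NIR 3 held 113 counts of 13059048 and rt-PA 1 held 102 of 13102497, so by library totals alone the groups overlapped. For Aif1 the log2 difference was -0.41 (SE 0.22, edgeR adjusted p = 0.458). Cd68, Lgals3 and Tyrobp had log2 differences of -0.58 (SE 0.46), -0.65 (SE 0.86) and -0.35 (SE 0.25). Cx3cr1 was at 0.02 (SE 0.16, interval -0.35 to 0.39) and Apoe at 0.16 (SE 0.24).

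Without rt-PA 3, Itgam (-1.92, edgeR adjusted p = 0.00696) and Gpnmb (-1.44, edgeR adjusted p = 0.0177) passed the threshold, where 8.07% of tested genes were called lower. DESeq2 called the same genes on all 9 libraries, at -1.54 (adjusted p = 0.0362) for Itgam and -1.17 (adjusted p = 0.0474) for Gpnmb, where it called 2.63% of tested genes lower. It gave no p for Spp1 (log2 difference -4.29), which was therefore not tested by DESeq2. Limma-voom called 0 of 9 (0.00649% of tested genes). With library weights it called 6 lower and 1 higher, where it called 18.9% of tested genes lower and 20.2% higher. The log2 difference of Lgals3 was -2.42 without Nano-patrol+NIR 3 and -0.21 without rt-PA 2.

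**Figure D5:**
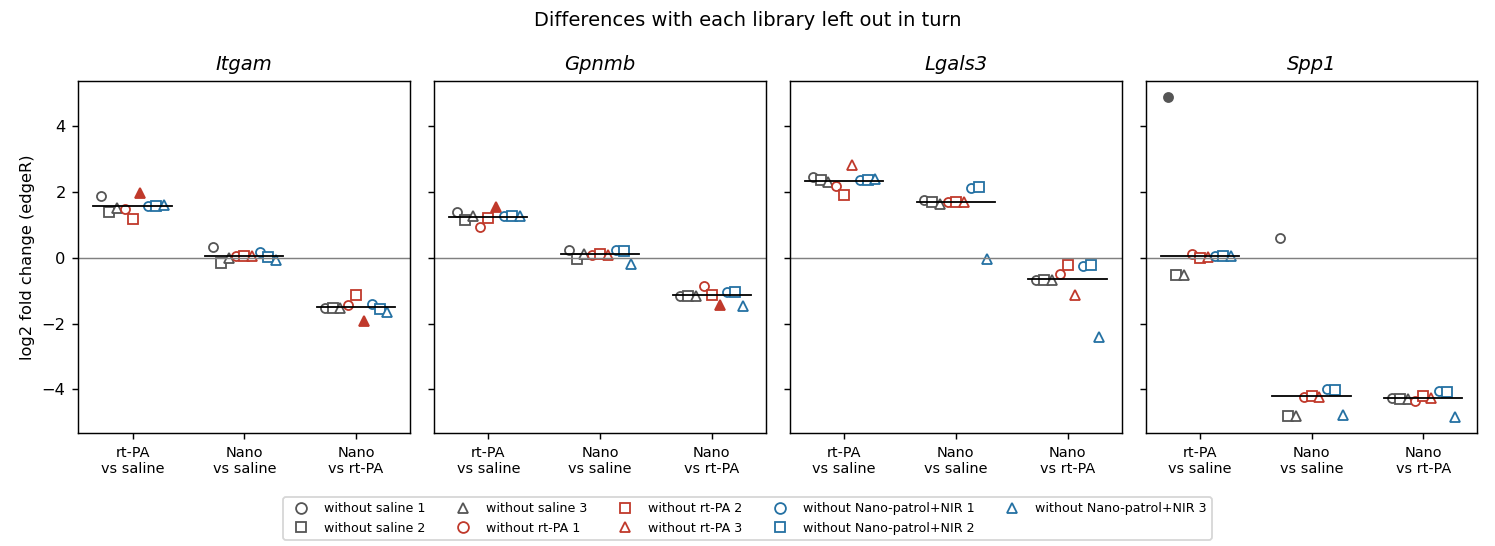
Log2 differences of 4 genes (edgeR) in each comparison when 1 library is left out, with symbols for the library left out, filled where the adjusted p was under 0.05, and lines for the value from all 9 libraries. Spp1 against saline moved from 0.05 to 4.89 for rt-PA, and from -4.21 to 0.62 for Nano-patrol+NIR, without saline 1.

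Several departures of these genes from their group fell in the libraries that stood apart across all genes, namely Spp1 in saline 1, Itgam, Gpnmb and Lgals3 in rt-PA 3, and Lgals3 and Cd68 in Nano-patrol+NIR 3. When saline 1, rt-PA 3 and Nano-patrol+NIR 3 were all left out, leaving 2 libraries a group, Itgam, Tyrobp, Cd68, Gpnmb, Lgals3 and Spp1 were called higher in rt-PA than in saline and Apoe lower. The log2 differences were 2.25 for Itgam, 1.67 for Gpnmb, 2.91 for Lgals3, 4.89 for Spp1 and -0.48 for Apoe. In that fit 23.4% of all tested genes were called higher and 20.4% lower. The same 7 genes were called with the opposite signs between Nano-patrol+NIR and rt-PA, where 19.2% of tested genes were called higher and 21.2% lower. Of these, Tyrobp (edgeR adjusted p = 0.049996) and Apoe (edgeR adjusted p = 0.0443) passed only narrowly. Between Nano-patrol+NIR and saline 0 of 9 were called, where 2.08% of tested genes were called higher and 1.19% lower. Picking libraries to leave out by their distance from the group leaves too small a spread, so these p-values are too small. Markers of neurons, astrocytes, neutrophils and blood cells could not be paired with identifiers, and their part in these differences was not tested.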

How the data were processed

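RNA from rat brain tissue was extracted with Trizol and poly(A)-selected, per the labels' protocols. Tools listed without roles in the submitters' processing notes were HISAT2, StringTie 1.3.1, Bowtie2 2.2.8 and fastp 0.18.0. The counter, strand setting, build and annotation were not stated. Per the deposited table, the authors' values are whole-number read counts per Ensembl gene. Groups and replicate numbers came from sample titles, and columns were matched through sample descriptions. The labels do not tie libraries to separate animals, so p-values cover the spread between libraries alone, which may be technical. Libraries of a group all differed by more than counting noise, and none looked deposited again.

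Analysis used edgeR 4.0.16 in R 4.3.3 (filterByExpr, TMM scaling, 1 mean per group over 9 libraries, robust quasi-likelihood test, Benjamini-Hochberg adjustment over 15402 genes, called under 0.05). Standard errors are the log2 difference divided by the square root of F, and log2 CPM used a prior count of 2. An exact two-sided permutation test of 3 against 3 libraries cannot go below p = 0.1 and was not used. Alternatives were DESeq2 1.42.0, limma-voom with and without library weights (limma 3.58.1), other scalings and filters, only the 6 libraries compared, a replicate block, and libraries left out. All 9 genes were described whatever their values. The genes and lists were chosen with earlier results of these data known. Pathway and marker lists written as symbols could not be paired with identifiers and were not used, and the same holds for genes of like pattern.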

Additional observations from a re-analysis of the deposited data

How the results depend on the processing

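Counts of called genes among the 9 are given for rt-PA with saline, then Nano-patrol+NIR with saline, then Nano-patrol+NIR with rt-PA. The edgeR fit gave 0, 0 and 0, with 3, 1 and 3 at an unadjusted p under 0.05. Other scalings, other filters, an adjusted p under 0.01 and only the 6 libraries compared also gave 0. DESeq2, which gave no p for Spp1, called 2, 0 and 2 (1002, 128 and 601 of all genes). Limma-voom with library weights called 7, 0 and 7 (6956, 909 and 6027 of all genes). The fit without the 3 libraries that stood apart called 7, 0 and 7 (6710, 501 and 6195 of all genes). Leaving out 1 library gave 0 to 2, 0 to 0 and 0 to 2. The counts of 2 came without rt-PA 3, where 2112 and 2047 of all genes were called. With the replicate block the counts were 0, 0 and 0, and also 0, 0 and 0 of all genes. Deviations of same-numbered libraries correlated at -0.362 to 0.278, over 0.1 in 5 of 9 pairs, and the best match of a library had its own number in 2 of 9 cases, so the numbers were not taken to pair the libraries.

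Of the 27 log2 differences, 18 kept their sign in every alternative, and the 33 reversals had adjusted p of at least 0.632. Cx3cr1 between Nano-patrol+NIR and rt-PA was -0.0049 with DESeq2, -0.0050 with relative log expression scaling, -0.0016 without the 3 libraries and -0.051 to 0.075 leaving out 1. For rt-PA against saline, Spp1 was -0.10 with library totals alone and -0.53 to 4.89 leaving out 1. On all 9 libraries Spp1 was 0.05 with edgeR, 2.71 with limma-voom, 4.75 with library weights and 1.85 with the replicate block. Aif1 was 0.13 without the 3 libraries and -0.13 to 0.15 leaving out 1. For Nano-patrol+NIR against saline, library weights gave -0.11 for Cd68, -0.067 for Gpnmb and 0.15 for Spp1, and leaving out the 3 libraries gave -0.080, -0.062 and 0.055. For Spp1, limma-voom without weights gave -1.65 and the replicate block -2.46, beside -4.21 with edgeR. Leaving out 1 library gave -0.35 to 0.44 for Cd68, -0.18 to 0.24 for Gpnmb, -4.81 to 0.62 for Spp1, -0.15 to 0.34 for Itgam, -0.019 to 0.25 for Tyrobp and -0.028 to 2.15 for Lgals3. Why they changed, the cause, was not tested. Depth limits Cd68, at 25 to 92 counts a library, and Spp1 in the 5 libraries where it was low, at 18 to 68. It also limits Lgals3 in the libraries where that gene was low, at 51 to 75 counts.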
